A study of Mus musculus with 6 samples.

Results

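The 10 genes described here encode regulators and matrix proteins of tendon and of the connective tissue that surrounds muscle: Scx, Mkx, Egr1, Egr2, Tnmd, Tnc, Thbs2, Thbs4, Six2 and Tcf7l2. Every probe set whose platform annotation gave exactly 1 symbol, equal to one of these names, was taken, which gave 18 of the 45037 probe sets tested and 10 of 18193 named genes. Expression was measured in proximal hindlimb bud tissue of mouse embryos at stage E11.5, in 3 wild-type pools and 3 pools labelled Lmx1b -/-, all of strain 129Sv. Each pool joined both hindlimb buds of 3 embryos, 6 buds in all, and about 500 µm of the proximal part was used. The sources used here do not give the kind of null allele, and pooling hides the spread between embryos. LMX1B is the LIM homeodomain factor that specifies the dorsal side of the limb mesenchyme, and the comparison asks which transcripts differ when it is missing.

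Limb tendons arise from mesenchyme that switches on Scx, which encodes the basic helix-loop-helix factor scleraxis, in response to TGF-beta and FGF signals. Mkx, which encodes the homeodomain factor Mohawk, and the zinc finger factors EGR1 and EGR2 act with scleraxis or after it to raise tendon collagens and other matrix. Tenomodulin, thrombospondins and tenascin-C are proteins of the tendon that forms. The muscle connective tissue is a separate fibroblast population in which TCF7L2, formerly named TCF4, is used as a marker, and it guides the pattern of limb muscles.

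Values are the authors' RMA values, a background-corrected, between-array normalized summary of each probe set, taken as log2. Changes are null minus wild type on this scale, with the standard error (SE) or 95% interval of a limma fit over all probe sets. A probe set is said to pass when its Benjamini-Hochberg adjusted p over all 45037 is under 0.05. Levels of different probe sets are not comparable, because each probe binds its target with its own strength. The median probe set stood at 4.98, and values well below that carry little signal above background. In whole tissue, fewer cells of a type and less RNA per cell cannot be told apart.

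The arrays were alike, with correlations over all probe sets from 0.993 to 0.997. In its brighter probe set Lmx1b stood at 7.93 ± 0.31 in wild-type pools and 4.47 ± 0.21 (SD, n = 3) in null pools, a change of -3.45 (limma adjusted p = 0.000544), which accords with the labels. Tbx4, the hindlimb selector gene, was bright in every pool, between 10.15 and 10.66. Wild-type pool 1 stood apart for many of the genes below, and wild-type pool 3 for a list of hypoxia response and glycolysis genes. Xist, which is transcribed from the inactive X chromosome, read 4.68 and 4.72 in wild-type pools 1 and 3 and 9.16 to 10.79 in the other four, and its part in the results below was not tested beyond a fit that includes its level.

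None of the 18 probe sets passed the threshold. Over all probe sets 0.0844% passed, which is well under 1 probe set in 18. The smallest limma adjusted p among the 18 was 0.288, for Mkx. At an unadjusted p under 0.05 there were 5 of 18, where 9.41% of all probe sets reached this. Of the 5, 4 were higher in null pools (5.22% of all) and 1 lower (4.20% of all). The 3 null values lay wholly outside the 3 wild-type values in 6 of 18, against 14.4% of all probe sets. Here 5 were higher (8.62% of all) and 1 lower (5.78% of all). The members' median change was 0.10 against 0.01 over all probe sets, and 15 of 18 were above wild type against 55.5% of all. Without wild-type pool 1, 3 of 18 were at an unadjusted p under 0.05 (8.22% of all probe sets), 9 did not overlap (23.9%), 11 were above wild type (53.6%), and the members' median change was 0.06. Without wild-type pool 3 these were 6 (11.2% of all probe sets), 7 (28.4%), 14 (56.5%) and 0.09.

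**Figure D1:**
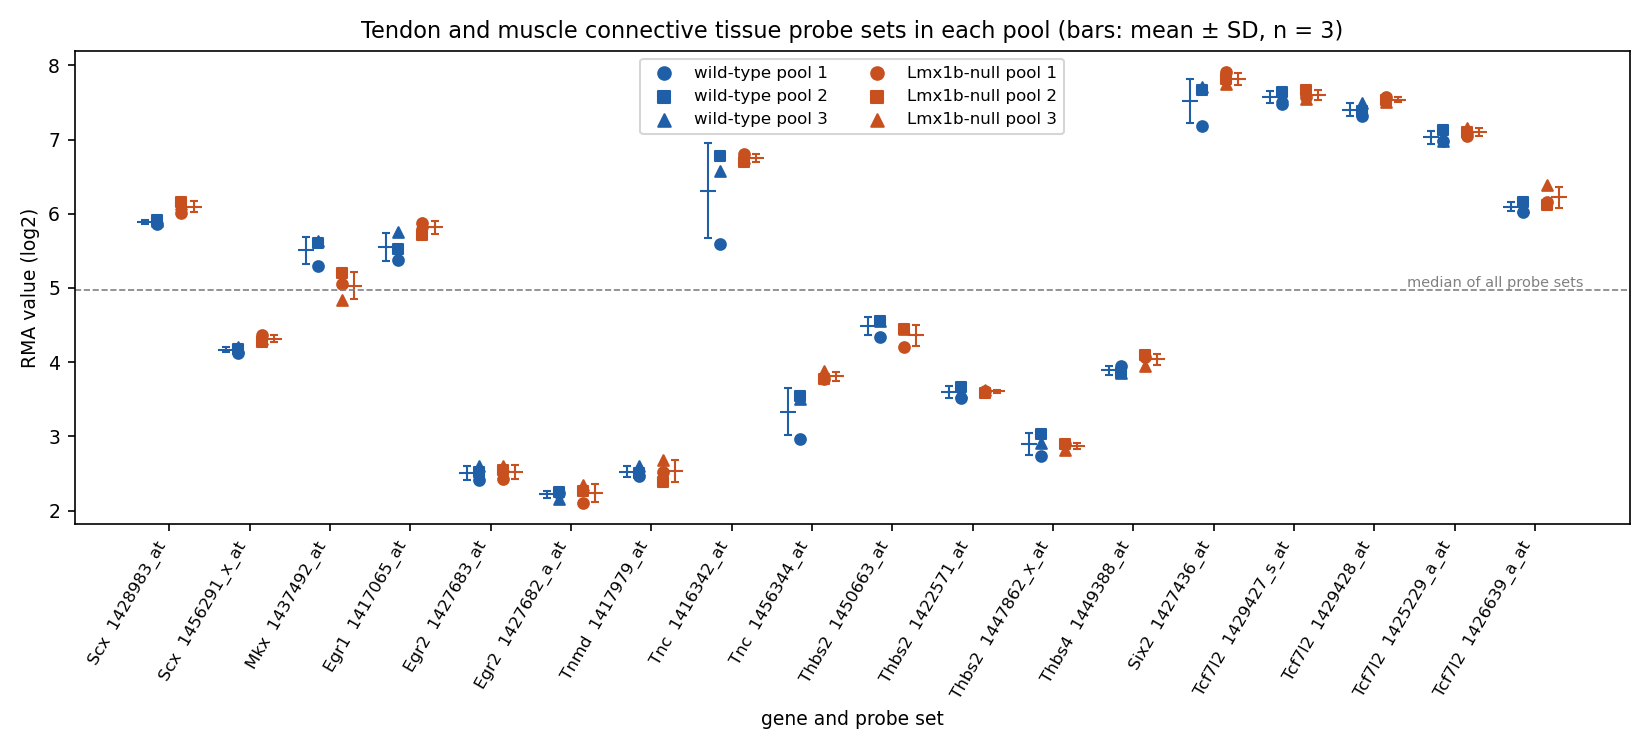
RMA values (log2, vertical axis) of the 18 probe sets in each of the 6 pools, with wild-type pools in blue, Lmx1b-null pools in orange and bars for mean ± SD (n = 3). The Scx values are higher and the Mkx values lower in all 3 null pools, and wild-type pool 1 lies well under the other pools for Tnc and Six2.

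Scx and Mkx, both transcription factor genes of the tendon programme, had changes of opposite sign, and neither passed the threshold. In its brighter probe set, 1428983_at, Scx gave 5.86, 5.91 and 5.90 across wild-type pools 1, 2 and 3, against 6.01, 6.15 and 6.13 across the null pools in the same order. All null pools lay above all wild-type pools, and the wild-type pools spread over no more than 0.05. The means were 5.89 ± 0.03 and 6.10 ± 0.08 (SD, n = 3), a 1.16-fold difference (change 0.21, 95% interval 0.05 to 0.36; limma adjusted p = 0.417, not past the threshold). The dimmer Scx probe set, 1456291_x_at, read 4.13, 4.18 and 4.20 in wild-type and 4.37, 4.28 and 4.31 in null pools. It showed the same order without overlap, with a change of 0.15 (95% interval 0.00 to 0.30; limma adjusted p = 0.524). The suffix of that probe set marks probes that can bind more than their own transcript.

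Mkx had 1 probe set, which read 5.30, 5.60 and 5.63 in wild-type pools and 5.05, 5.20 and 4.84 in null pools. Every null pool was lower than every wild-type pool, though the gap between null pool 2 and wild-type pool 1 was small. The means were 5.51 ± 0.18 and 5.03 ± 0.18 (SD, n = 3), a 1.39-fold difference (change -0.48, 95% interval -0.76 to -0.20; limma adjusted p = 0.288). In size this was the greatest change among the 18 probe sets. Leaving out 1 pool at a time gave Mkx changes from -0.58 to -0.38 and Scx changes from 0.18 to 0.25 in the brighter probe set.

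The divergence was then measured within each pool as Scx minus Mkx, in which only a log2 shift shared equally by both cancels. This difference was 0.56, 0.31 and 0.27 for the wild-type pools, against 0.96, 0.95 and 1.29 for the null pools. The groups did not overlap, and the lowest null pool stood 0.40 above the highest wild-type pool. The mean difference was 0.38 ± 0.16 in wild-type and 1.07 ± 0.19 in null pools (SD, n = 3), so the groups differed by 0.69 on the log2 scale. A two-sided exact permutation test over the pools gave p = 0.1, the smallest it can give with 3 against 3. Scx lay wholly higher and Mkx wholly lower in null pools, so the lack of overlap and this p were fixed by those values. They add no separate evidence, also with the dimmer Scx probe set. With the dimmer Scx probe set the groups differed by 0.63. With 1 pool left out it ran from 0.58 to 0.78.

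**Figure D2:**
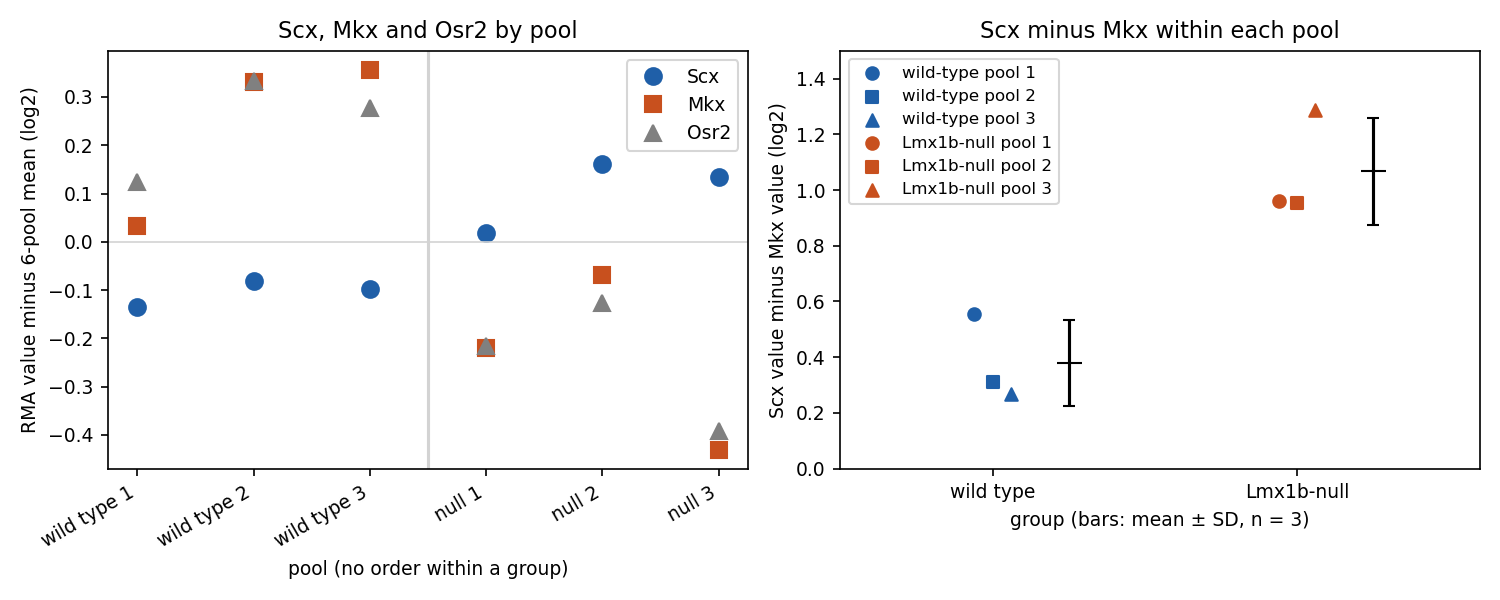
Left, RMA values of Scx, Mkx and Osr2 (log2, each minus its own mean over the 6 pools) by pool; right, the Scx value minus the Mkx value (log2) in each pool, with mean ± SD (n = 3). Scx is higher in the 3 null pools while Mkx and Osr2 are lower, and the difference on the right is 0.27 to 0.56 in wild-type pools and 0.95 to 1.29 in null pools.

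Genes with the profile nearest to each of the pair were found among 9069 genes with a mean of at least 6, as the root mean square difference over the 6 pools of centred log2 values. For Mkx the nearest was Osr2, a zinc finger gene of limb mesenchyme and joints, at 0.057. Osr2 read 7.70, 7.91 and 7.85 in wild-type pools and 7.36, 7.45 and 7.18 in null pools. In both genes wild-type pool 1 was the lowest of its group and null pool 3 the lowest of all, while wild-type pools 2 and 3 stood in opposite order. Osr2 was picked for this likeness, which is therefore a description. Its change was -0.49 (SE 0.09; limma adjusted p = 0.156). Next came Zfp9, at 0.069 with a change of -0.37, and Egflam, which encodes the matrix protein pikachurin, at 0.084 with a change of -0.58 (adjusted p = 0.370 and 0.113 in limma).

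For Scx the nearest were Lpar4, a receptor gene for lysophosphatidic acid, at 0.025, the kinase gene Dclk1 at 0.036 and Rhebl1 at 0.041. Their changes were 0.20, 0.15 and 0.17, and none passed (limma adjusted p = 0.433, 0.522 and 0.479). Likeness over 6 pools describes these pools only.

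Scx was set against the other members in the same way, 10 within-pool contrasts in all including both with Mkx. Against Thbs2 the groups differed by 0.33, with values of 1.52, 1.36 and 1.34 in wild-type and 1.81, 1.71 and 1.68 in null pools. Against Tnmd it was 0.20, against Egr2 0.20 and against Tcf7l2 0.18, again with no overlap at each gene's brightest probe set, but the Tnmd and Egr2 probe sets lay at the bottom of the range. With the other Tcf7l2 probe sets the difference was 0.08 (1429428_at) and 0.08 (1426639_a_at), both with overlap, and 0.14 (1425229_a_at) without. With the other Thbs2 probe sets it was 0.20 (1422571_at), without overlap, and 0.23 (1447862_x_at), with overlap. The contrasts with these other probe sets were not tested. At the brightest probe sets, those with Thbs2, Tnmd, Egr2 and Tcf7l2 each had an exact permutation p of 0.1, the smallest possible. After Benjamini-Hochberg adjustment over the 10 it was 0.167, and both Mkx contrasts had the same values. Against Tnc (-0.23), Six2 (-0.09), Egr1 (-0.06) and Thbs4 (0.06) the pools overlapped, with exact permutation p of 0.9, 0.8, 0.7 and 0.4. For these members the data do not separate the change from that of Scx.

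Egr1 encodes a zinc finger factor that raises tendon collagen genes and is also an immediate early gene, switched on within minutes of a stimulus. It read 5.38, 5.52 and 5.75 in wild-type pools and 5.87, 5.72 and 5.87 in null pools. Wild-type pool 3 reached above null pool 2, so the groups overlapped. The change was 0.27 (95% interval 0.03 to 0.51; limma adjusted p = 0.491), and 0.18 without wild-type pool 1. Other immediate early genes were read beside it, because tissue handling can induce them: 0 of 20 passed (limma; 4 at an unadjusted p under 0.05, where 8.92% of all genes were), 14 were higher and 6 lower, and their median change was 0.11 against 0.02 over all genes. Without wild-type pool 1 that median was 0.04 and their mean change went from 0.05 to -0.0019. Among them Fosb (0.23) and Ccn1 (0.23) were higher and Junb (-0.22) and Nr4a2 (-0.18) lower, none past the threshold. Their mean level ran from 6.36 to 6.58 in wild-type and from 6.48 to 6.55 in null pools, and its part in the Egr1 values was not tested.

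Egr2 (Krox20), a relative of Egr1 best known from hindbrain and Schwann cells, lay at the bottom of the range in both of its probe sets. The brighter read 2.41, 2.52 and 2.60 in wild-type and 2.42, 2.55 and 2.60 in null pools. The changes were 0.01 and 0.02 (limma adjusted p = 0.975 and 0.959), and their sign turned under other settings, the first also under both other scalings. Egr3, the paralogue with a mean of 5.91 in wild-type pools, had a change of 0.04.

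GCGNGGGCG, the sequence that EGR factors are known to bind, was looked for on both strands in the 250 bases before the start sites that RefSeq gives (GRCm38.p6). The member windows searched were 13, from 7 of the 10 genes. No window of Scx, Mkx or Egr1 was in the member set searched, so the motifs were not looked for in these genes. Their absence from this set does not mean that RefSeq gives no start site for them. Both windows of Tnc and 1 of 2 of Tcf7l2 held the motif, 3 of the 13, and 4.70% of all 32851 windows hold it. For each of these genes the window closest to the start of the annotated gene is shown, 5′ to 3′ on the gene's strand, with the motif in capitals. The Tnc window is chr4:64047016-64047265 (minus strand), with the motif beginning 171 bases before the start site, and the Tcf7l2 window is chr19:55741560-55741809 (plus strand), with the motif on the opposite strand.
Tnc: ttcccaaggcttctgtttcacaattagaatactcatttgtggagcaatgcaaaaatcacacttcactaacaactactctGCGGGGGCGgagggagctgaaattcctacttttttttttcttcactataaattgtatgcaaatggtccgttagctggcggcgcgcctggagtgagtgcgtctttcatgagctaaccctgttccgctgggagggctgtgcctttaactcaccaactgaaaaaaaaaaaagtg
Tcf7l2: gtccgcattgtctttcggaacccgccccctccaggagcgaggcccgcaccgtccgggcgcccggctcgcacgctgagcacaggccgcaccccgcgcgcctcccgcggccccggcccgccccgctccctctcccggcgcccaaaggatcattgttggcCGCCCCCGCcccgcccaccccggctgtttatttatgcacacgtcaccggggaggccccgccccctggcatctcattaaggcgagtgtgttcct
TAATTA, a core that LIM homeodomain factors can bind, was found in 1 of the 13 windows, that of Tnmd, and in 4.84% of all windows. The E-box CANNTG, the class of site bound by scleraxis, was found in 8 of the 13 and in 66.2% of all windows. ATCAAAG, bound by TCF factors, was found in 0 of the 13 and in 3.21% of all windows. In the windows printed here the capitals overlap none of the other motifs. A match is only a description of the sequence.

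The matrix genes that mark forming tendon were dim, or differed largely through wild-type pool 1. Tnc, which encodes tenascin-C of tendons and muscle ends, read 5.59, 6.77 and 6.58 in wild-type pools and 6.81, 6.70 and 6.76 in null pools in its brighter probe set. Wild-type pool 1 lay about a whole log2 unit below the other five, and wild-type pool 2 lay among the null pools. The means were 6.31 ± 0.64 and 6.75 ± 0.06 (SD, n = 3), which gives a change of 0.44 (95% interval -0.18 to 1.05; limma adjusted p = 0.645). Without wild-type pool 1 the change was 0.08, and it was 0.0047 when the fit included the Xist level.

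The dimmer Tnc probe set, 1456344_at, read 2.96, 3.54 and 3.50 in wild-type and 3.77, 3.77 and 3.88 in null pools. Here the groups did not overlap, also not without wild-type pool 1. The change was 0.47 (SE 0.15; limma adjusted p = 0.399), or 0.29 without that pool. All of these values lie below the median probe set, where RMA compresses differences.

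Tnmd, the type II membrane glycoprotein gene tenomodulin and the classic marker of mature tendon cells, was near the bottom of the range. It read 2.46, 2.51 and 2.61 in wild-type and 2.52, 2.39 and 2.68 in null pools. The change was 0.01 (95% interval -0.20 to 0.21; limma adjusted p = 0.989), with a sign that turned under both other scalings. At this signal a difference between the groups was not detectable.

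Its paralogue Cnmd, the cartilage gene chondromodulin, passed the threshold going from 6.74 ± 0.37 to 4.98 ± 0.31 (change -1.76; adjusted p = 0.0395 in limma).

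The thrombospondin genes Thbs2 and Thbs4 encode secreted proteins that bind collagen and other matrix in tendon and fascia. All Thbs2 probe sets lay below the median level. The brightest read 4.34, 4.55 and 4.55 in wild-type and 4.20, 4.44 and 4.45 in null pools, with overlap and a change of -0.12 (95% interval -0.34 to 0.11; limma adjusted p = 0.742). It was -0.03 without null pool 1 and -0.19 without wild-type pool 1. The dimmer ones had changes of 0.01 and -0.02, and the first of these turned negative under both other scalings. Thbs4 read 3.95, 3.85 and 3.86 in wild-type and 4.07, 4.09 and 3.95 in null pools, where null pool 3 lay just under wild-type pool 1. Its change was 0.15 (SE 0.07; limma adjusted p = 0.558). Thbs3, a paralogue with wild-type and null means of 7.14 and 7.31, had a change of 0.17 (adjusted p = 0.536) and Thbs1 of -0.02.

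Six2, a homeobox gene expressed in limb tendon precursors and other mesenchyme, was among the brighter members. It read 7.19, 7.66 and 7.71 in wild-type pools and 7.91, 7.81 and 7.74 in null pools. The groups did not overlap, but null pool 3 exceeded wild-type pool 3 by a few hundredths and wild-type pool 1 stood far below the rest. The change was 0.30 (95% interval -0.01 to 0.62; limma adjusted p = 0.545), and 0.13 without wild-type pool 1.

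Tcf7l2, a nuclear effector of WNT signalling and the marker of muscle connective tissue fibroblasts, had 4 probe sets, all above the median level. The brightest, 1429427_s_at, read 7.48, 7.65 and 7.59 in wild-type and 7.57, 7.67 and 7.55 in null pools. These values overlapped and the change was 0.02 (95% interval -0.14 to 0.19; limma adjusted p = 0.942). Probe set 1429428_at read 7.32, 7.39 and 7.50 in wild-type and 7.57, 7.53 and 7.51 in null pools, without overlap, with a change of 0.13 (SE 0.07; adjusted p = 0.592). The remaining probe sets, 1425229_a_at and 1426639_a_at, had changes of 0.07 and 0.13. The first was 0.12 without wild-type pool 2 and 0.04 without wild-type pool 1, and the second was 0.04 without null pool 3. The 95% intervals of the 4 stayed between -0.14 and 0.33. The family relatives Tcf7l1 and Lef1 had changes of 0.15 and 0.08, neither past the threshold.

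**Figure D3:**
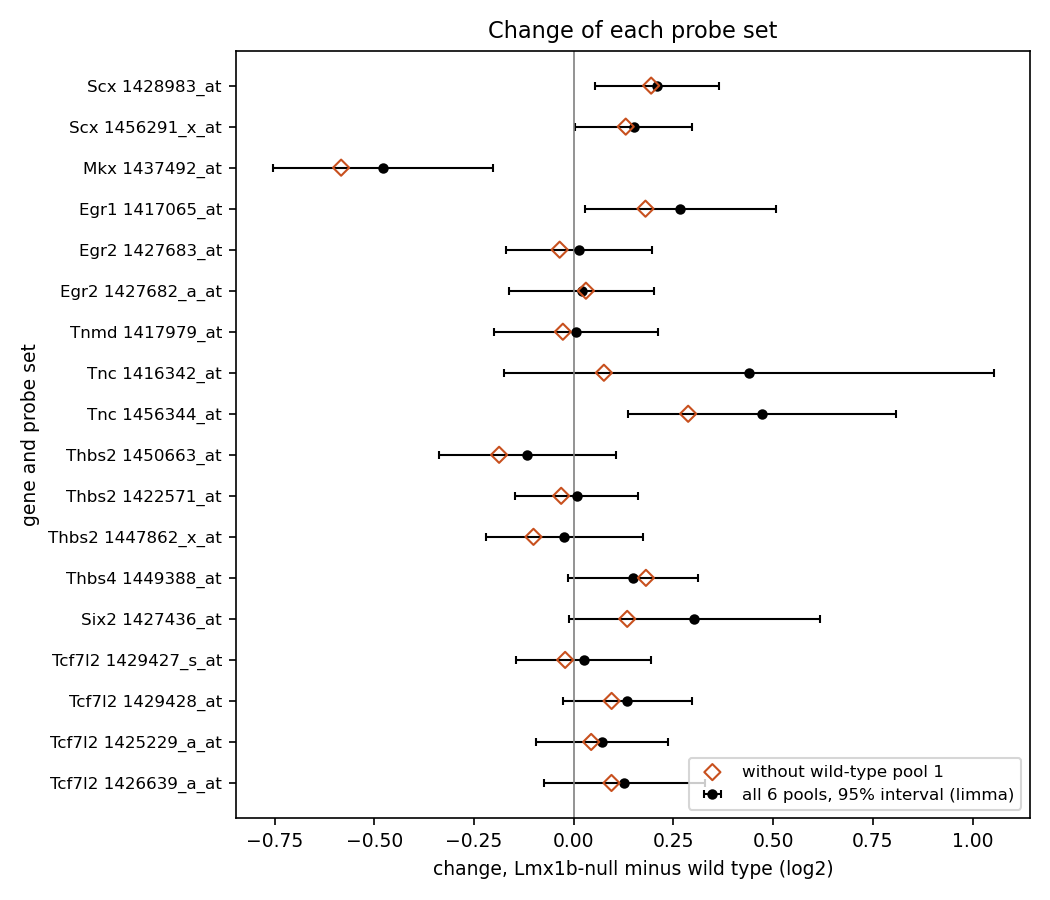
Change of each of the 18 probe sets, null minus wild type (log2, horizontal axis), with limma's 95% interval over 6 pools in black and the change without wild-type pool 1 as open diamonds. Scx and Mkx keep their place without that pool, whereas the brighter Tnc probe set moves from 0.44 to 0.08 and Six2 from 0.30 to 0.13.

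Wild-type pool 1 held the lowest value in 13 of the 18 member probe sets and the highest in 0, whereas it was the lowest pool in 22.8% of all probe sets. Probe sets of the same gene share a target, so the 13 are not separate observations. Averaged over the 10 genes, as deviations from each gene's mean over the 6 pools, wild-type pool 1 stood at -0.22 and the other five between 0.03 and 0.06. Mkx was no exception within its group, since wild-type pool 1 was its lowest wild-type value too, and without that pool its change was -0.58 instead of -0.48.

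Several lists of markers of other cells were low in the same pool. Over 15 muscle precursor and muscle genes the mean deviation was -0.43 in wild-type pool 1, -0.09 to 0.09 in the remaining wild-type pools and 0.02 to 0.25 in null pools. Of these, 13 of 15 were above wild type (57.0% of all genes) with a median change of 0.32, which was 0.09 without wild-type pool 1. In limma 0 passed, and 3 were at an unadjusted p under 0.05, all higher (5.34% of all genes were higher at that p and 3.58% lower). Their mean level ran from 5.83 to 6.35 in wild-type and from 6.28 to 6.51 in null pools, and 2 of 15 were below the median level. Msc (0.78), Lbx1 (0.32), Myod1 (0.51) and Myog (0.44) led by p, none past the threshold. The surface ectoderm list stood at -0.23 in wild-type pool 1, the Schwann cell and neuron list at -0.17 and the macrophage list at -0.12. The cartilage list stood at -0.12 there, close to the -0.15 to -0.08 of the null pools, while the endothelial list stood at 0.10 and the red cell list at -0.01. The part of other cell types in the Tnc, Six2 and Egr1 values was not tested.

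The hypoxia response and glycolysis genes separated wild-type pool 3 instead. Over 14 genes their mean deviation was 0.72 in that pool and -0.26 to -0.05 in the other five. All 14 were lower in null pools with a median change of -0.33, where 57.0% of all genes were higher. In limma 0 passed and 3 were lower at an unadjusted p under 0.05 (3.58% of all genes). These were Ldha (-0.39), Pdk1 (-0.50) and Bnip3 (-0.66). Without wild-type pool 3 the median was -0.08 with 9 of 14 lower. The 10 tendon and connective tissue genes stood at 0.06 in that pool, and without it the mean of their changes went from 0.08 to 0.13. Without wild-type pool 1 that mean was -0.0091, with 5 of 10 higher.

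**Figure D4:**
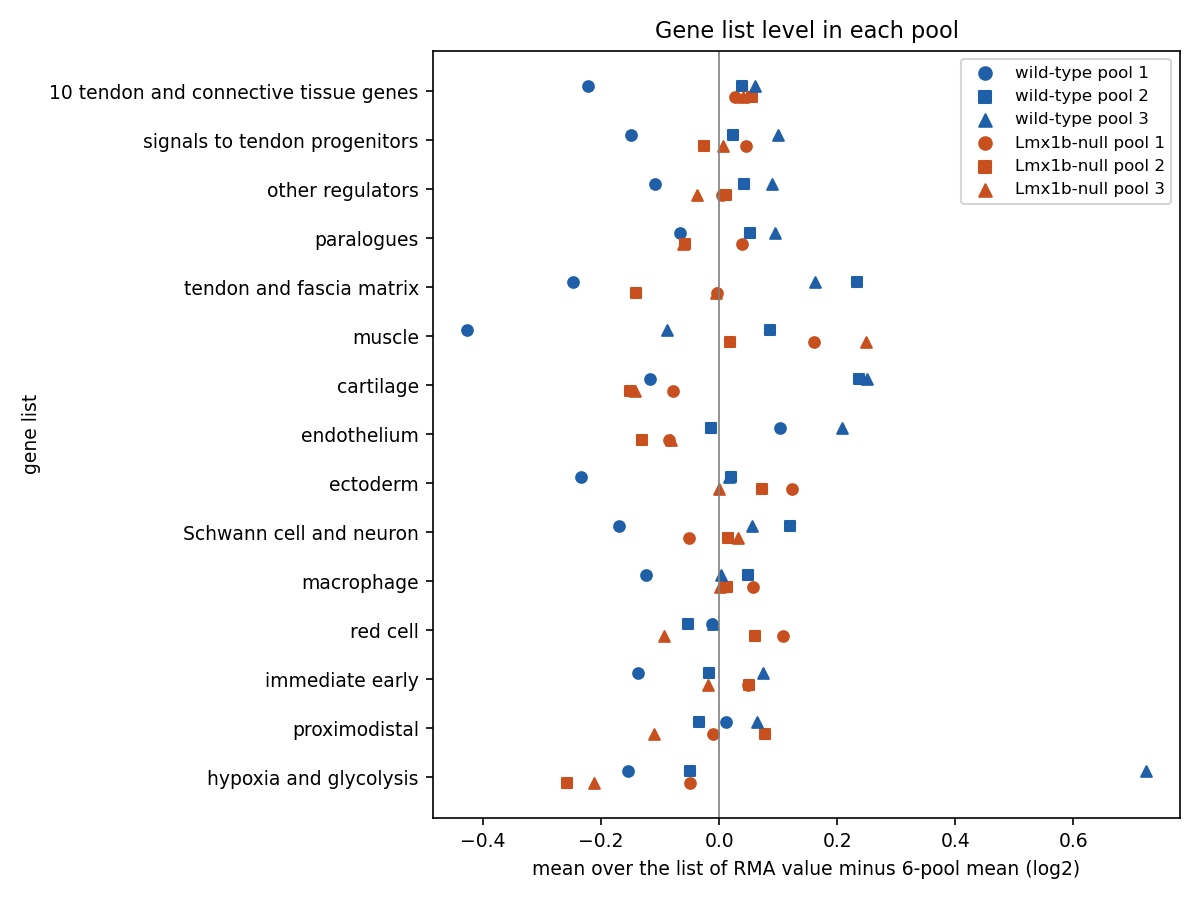
Mean over each gene list of the RMA value minus the gene's mean over the 6 pools (log2, horizontal axis), for each pool. Wild-type pool 1 is the lowest pool for the 10 tendon and connective tissue genes (-0.22), for muscle (-0.43) and for tendon and fascia matrix (-0.25).

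Of the signals that act on tendon progenitors, 0 of 23 measured genes passed (limma; 3 higher and 3 lower at an unadjusted p under 0.05), with 15 higher and 8 lower and a median change of 0.08. Over all genes, 0.0934% passed at the brightest probe set and 57.0% were above wild type. At an unadjusted p under 0.05, 5.34% of all genes were higher and 3.58% lower. Spry2, a feedback inhibitor that FGF signalling induces, read 7.74, 7.99 and 8.05 in wild-type and 8.26, 8.37 and 8.34 in null pools (change 0.39; limma adjusted p = 0.255). Dusp6, another FGF-induced feedback gene, had a change of 0.22. Gdf5 (-0.88), a growth factor gene of joints and tendons, and Bmp4 (-0.28) were lower, and none of these passed. The TGF-beta ligand genes Tgfb2, Tgfb3 and Tgfb1 had changes of 0.34, 0.15 and -0.0083, and are named outside the rule for examples. The groups overlapped in each, and none passed (limma adjusted p = 0.614, 0.644 and 0.989). Wild-type pool 1 was the lowest pool in each. Tgfb2 read 8.61 there, against 9.21 and 9.32 in wild-type pools 2 and 3.

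Other transcription factors of tendon and muscle connective tissue went both ways, with 11 higher and 11 lower of 22 and a median change of 0.00. Without wild-type pool 1, 8 were higher and 14 lower. In limma 0 passed, and 2 were higher and 3 lower at an unadjusted p under 0.05 (5.34% and 3.58% of all genes). Besides Osr2, the smallest p belonged to Tbx3 (0.26), a T-box gene of muscle connective tissue, Tbx4 (-0.29) and Meox2 (0.25), a homeobox gene of somites and limb muscle. Osr1, the paralogue of Osr2, had a change of 0.06.

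Genes of tendon and fascia matrix also went both ways: 16 of 28 were higher and 12 lower, with a median change of 0.08 and a mean of -0.10. Without wild-type pool 1, 10 were higher and 18 lower, with a median of -0.07 and a mean of -0.25. At an unadjusted p under 0.05 there were 3 higher and 4 lower, against 5.34% and 3.58% of all genes. The groups did not overlap in 9 of 28, against 14.6% of all genes. Kera, the proteoglycan gene keratocan, was the only one of the 28 that passed (change -1.85, SE 0.15; limma adjusted p = 0.00638), with null values near 3.25. Lum (-1.50), Lox (-1.15) and Dcn (-0.79), which encode a pair of collagen-binding proteoglycans and the collagen cross-linking enzyme, had no overlap between groups but adjusted p of 0.0737, 0.206 and 0.262 in limma. On the higher side Fmod (0.56), Fn1 (0.24) and Loxl1 (0.40), which encode fibromodulin, fibronectin and a lysyl oxidase relative, did not overlap either (limma adjusted p = 0.370, 0.459 and 0.497). These 3 are named outside the rule. The main tendon collagen genes, named outside the rule, had changes of 0.13 (Col1a1) and 0.25 (Col1a2), and Postn, the periostin gene, of 0.34. The groups overlapped in each, and none passed (limma adjusted p = 0.847, 0.584 and 0.661). Wild-type pool 1 was the lowest pool in each. Col1a1 read 9.28 there, 9.80 and 9.88 in wild-type pools 2 and 3, and 9.78 on average in null pools.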

How the data were processed

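Messenger RNA of 6 pools was read on 1 array each. The authors deposited log2 RMA values, per the submitters' processing notes; the log base is inferred from a range of about 2 to 14, and version and build are not given in the sources used here. RMA equalises the arrays' distributions, so a shift of most transcripts would be hidden.

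Of 45101 probe sets, 64 controls were left out. Symbols came from the platform annotation (34945 probe sets with 1 symbol, 932 with several, 9160 unnamed here). limma 3.58.1 (R 4.3.3; lmFit, eBayes without trend) compared the groups, two-sided, with Benjamini-Hochberg adjustment over all probe sets. A gene's brightest probe set stood for it in list counts. Scx contrasts used exact permutation tests. The fit was tested on simulated data. The median SE was 0.0843; the number of arrays limits the precision.

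Members, lists and motifs were chosen with earlier results of these data known. Named were all members, up to 4 genes per list (those past the threshold, then by smallest p) and the 3 nearest profiles to Scx and Mkx; Osr1, Egr3, Thbs1, Lef1, Postn and those said so lie outside this rule. Some genes of the lists were not analysed here, and list counts are over the genes measured. Alternatives changed the variance model, scaling, probe sets, pools and covariates.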

Additional observations from a re-analysis of the deposited data

How the results depend on the processing

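Against 38 probe sets past the threshold in all, 94 passed with an intensity trend, 69 with array weights, 20 among bright probe sets, 19 at 1 probe set per gene, 99 at an adjusted p under 0.1, 9 when the Xist level joined the fit, and 13 to 38 with 1 pool left out. With the pool number as a replicate block 14 passed. The deviations of pools with the same number correlated at -0.24, -0.09 and -0.17, and the labels state no pairing. Whether the numbers pair the pools cannot be told from 3 such correlations. None of these settings brought any of the 18 member probe sets past the threshold. The difference between groups in Scx minus Mkx was 0.71 after repeated quantile normalization and 0.58 to 0.78 with 1 pool left out. Median centring and the balanced block leave it at 0.69 by construction, so they do not test its size. With the block its exact permutation p was 0.25. The difference was not run under the other settings. Without wild-type pool 1, a setting added after seeing the data, 3 member probe sets were at an unadjusted p under 0.05 instead of 5. Without wild-type pool 3, added likewise, 6 were. The direction held in 11 of the 18 member probe sets throughout, those of Scx and Mkx among them. It turned in 27 of the 265 alternative values of the 18, all in the other probe sets, whose changes were near 0, and the cause was not tested. Egr2 1427683_at went from 0.01 to -0.0029 (array weights), -0.0033 (median centring), -0.011 (quantile normalization) and -0.0077 (Xist), and ran from -0.035 to 0.064 with 1 pool left out. Egr2 1427682_a_at was at -0.0021 (weights) and -0.032 (Xist), range -0.034 to 0.084. Tnmd was at -0.011 (centring), -0.021 (quantile) and -0.026 (Xist), range -0.070 to 0.078. Thbs2 1422571_at was at -0.015 (weights), -0.0087 (centring), -0.027 (quantile) and -0.064 (Xist), range -0.032 to 0.044, and 1447862_x_at ranged from -0.10 to 0.043. Tcf7l2 was at -0.026 and -0.031 with Xist in 1429427_s_at and 1425229_a_at, and the first ranged from -0.022 to 0.061. Signal limits Tnmd, Egr2 and Thbs2.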

Other observations

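Gene lists not described above showed these values. All 12 endothelial genes were lower in null pools with a median change of -0.17, where 57.0% of all genes were higher. Tek, the angiopoietin receptor gene, came closest to the threshold (change -0.65, limma adjusted p = 0.089). Of the 12 genes 0 passed, and 2 were lower at an unadjusted p under 0.05 (3.58% of all genes). Their mean deviation was 0.21 in wild-type pool 3, the highest of the 6, and without that pool 11 of 12 were lower with a median of -0.11. The neuronal gene Dcx had a change of -1.87 (limma adjusted p = 0.0691), while 9 of the 10 measured genes of its list were higher. Of 14 cartilage genes 11 were lower, and 14 without wild-type pool 1; Hapln1, the link protein gene, was at -0.76 and did not pass. Macrophage genes (5 of 8 higher, median 0.08) and red cell genes (5 of 7 higher, median 0.05) held 0 past the threshold in limma. At an unadjusted p under 0.05 they held 1 and 0, where 8.92% of all genes were. In the proximodistal list 5 of 11 genes were higher and 6 lower, and Shox2 passed (change -0.80, limma adjusted p = 0.0238). Hoxd13, a gene of the distal limb, read 7.14, 7.58 and 7.90 in wild-type pools and 7.72, 8.28 and 7.94 in null pools. The groups overlapped, with a change of 0.44 (limma adjusted p = 0.547). Hoxa13 of the same list, named outside the rule, had a change of -0.03.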
